A study of Mus musculus with 17 samples.

Results

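Growth factors and their receptors were examined in macrophages of the mouse synovium, the membrane that lines the joint. The members were 10 genes taken by symbol from the deposited count table, out of 22859 genes in that table. They were the ligand genes Igf1, Vegfa, Vegfb, Pdgfa, Pdgfb, Pdgfc and Hbegf, the receptor gene Flt1, and the co-receptor genes Nrp1 and Nrp2. All 10 had enough counts to be tested, as had 15272 genes in all.

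Bulk RNA of sorted cells was sequenced in 17 libraries of 6 groups. Every mouse carried the label Fcgr2b-KO (Fcgr2b-/-, adults of both sexes), a loss of the inhibitory receptor for IgG, so controls and challenged mice share this deletion and no comparison with another genotype was made. LYVE1+CX3CR1+ macrophages (labelled Lyve1, gated as MHCII-Ly6C-), MHCII+CD11c- macrophages (labelled IAIE) and MHCII+CD11c+ macrophages (labelled CD11c) were sorted from the knee synovium of control mice, labelled Healthy, and of mice given immune complexes (IC), here ovalbumin bound by rabbit antibody, through the tail vein 8 h earlier. There were 3 libraries in each group, and 2 for MHCII+CD11c+ macrophages after IC. The labels do not say whether the numbered libraries of a group came from separate animals or from pools, so each p-value measures the spread between these samples, which may be technical. In bulk libraries, fewer cells of a type and less RNA per cell cannot be told apart.

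The members belong to signalling systems that connect cells of a tissue. IGF-1 is a secreted hormone-like factor that acts through the receptor tyrosine kinase IGF1R and is made by many tissue macrophages. VEGF-A drives the growth and the leakiness of blood vessels through VEGFR2, which Kdr encodes, while VEGFR1, the product of Flt1, binds VEGF-A, VEGF-B and placental growth factor and in its soluble form holds VEGF-A away from VEGFR2. PDGF ligands act on PDGFRA and PDGFRB of fibroblasts and of the mural cells that wrap small vessels. HB-EGF is shed from the cell surface and acts on EGFR and ERBB4. NRP1 and NRP2 are co-receptors without kinase activity, which bind some VEGF isoforms as well as class 3 semaphorins, the latter together with plexins.

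Libraries held between 2301913 and 7248939 counts, and values are CPM, which are counts scaled to a common total by TMM, on which a floor of 3 counts equals 0.419 to 1.24 CPM. Counts of Fcgr2b itself ranged from 167 to 1168 per library (69.3 to 248 CPM), and as counts of a whole gene they do not show whether part of it was deleted. The sort markers of MHCII and CD11c followed the gates. H2-Ab1 lay between 9.76 and 36.8 CPM in LYVE1+CX3CR1+ libraries against 2654 or more elsewhere. Itgax, the CD11c gene, lay between 275 and 443 CPM in MHCII+CD11c+ libraries against 16.1 or less elsewhere. Lyve1, however, also reached 695 to 2458 CPM in MHCII+CD11c- libraries, which the gate had not selected for it. Summed endothelial markers (12 genes) lay between 8.78 and 64.5 CPM over all libraries, with the highest sum in MHCII+CD11c+ control library 2, and summed macrophage markers between 2992 and 15510 CPM. Genes with a count at equal depth numbered 11547 to 13842 in LYVE1+CX3CR1+ IC libraries, against 16334 to 17237 in LYVE1+CX3CR1+ controls and 13823 to 17485 over all 14 other libraries.

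Control libraries numbered 2 stood apart in some of these genes. Flt1 was at 35.4, 426 and 610 CPM in control library 2 of the LYVE1+CX3CR1+ subset, the MHCII+CD11c- subset and the MHCII+CD11c+ subset, against 0.977 to 31.9 CPM in the other 6 control libraries, and Vegfa was likewise highest in library 2 of each subset. Of the 10 members, 3, 6 and 9 had their highest control value in library 2 of these subsets. Libraries 1, 2 and 3 of LYVE1+CX3CR1+ controls held 3, 3 and 4 of these highest values, an even spread. The share of all genes highest in library 2 was not computed, so these counts are a description only. In the MHCII+CD11c+ library numbered 2, Lyve1 was at 382 CPM against 29.8 and 25.3 in the other controls, Cd74 at 8885 CPM against 15720 and 13610, and the summed macrophage markers at 4797 CPM against 3069 and 2992. Results are therefore given with and without these libraries where they decide a value, and the part of their cell content in these results was not tested.

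Differences that passed the test lay between macrophage subsets, and no member passed it for IC against control. At an adjusted p under 0.05 (edgeR quasi-likelihood test, Benjamini-Hochberg over all genes), 4 members were called in at least 1 contrast between subsets, namely Vegfa, Vegfb, Hbegf and Nrp1. Igf1, Pdgfa, Pdgfb, Pdgfc, Flt1 and Nrp2 were called in none of the 12 contrasts.

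In control mice, 3 of 10 members passed between the LYVE1+CX3CR1+ and MHCII+CD11c+ subsets, against 15.2% of all genes tested. Vegfb and Nrp1 were higher and Vegfa was lower in LYVE1+CX3CR1+ macrophages, and the libraries of 5 members did not overlap, against 37.7% of all genes. Between MHCII+CD11c+ and MHCII+CD11c- macrophages of controls, 3 members were called (8.66% of all genes), Vegfb, Hbegf and Nrp1, all lower in MHCII+CD11c+ macrophages, and the libraries of 4 did not overlap (27.4% of all genes). Marker lists moved in the same contrasts. All 9 macrophage markers were called lower in MHCII+CD11c+ controls than in either other subset (median log2 fold change 2.10 for LYVE1+CX3CR1+ against MHCII+CD11c+ and -2.09 for MHCII+CD11c+ against MHCII+CD11c-), and of 6 dendritic cell markers tested 5 were called lower in LYVE1+CX3CR1+ than MHCII+CD11c+ controls and 0 differed by the test between the MHCII+ subsets of controls. Summed dendritic cell markers were at 20.8 to 27.9 CPM in LYVE1+CX3CR1+, 106 to 252 CPM in MHCII+CD11c- and 253 to 630 CPM in MHCII+CD11c+ controls. Of 10 neutrophil markers, 4 were called lower in LYVE1+CX3CR1+ than MHCII+CD11c+ controls, and 1 (Csf3r) was called lower in MHCII+CD11c+ than MHCII+CD11c- controls. Their sums were 31.4 to 41.9, 53.8 to 383 and 99.4 to 580 CPM in the same order of subsets. The part of these marker lists in the members' differences was not tested. Only Hbegf was called between LYVE1+CX3CR1+ and MHCII+CD11c- macrophages of controls, 1 of 10 against 1.56% of all genes, and the libraries of 5 members did not overlap (21.6% of all genes).

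After IC, 3 of 10 members separated LYVE1+CX3CR1+ from MHCII+CD11c+ macrophages (11.9% of all genes), where Vegfb and Nrp1 were higher and Hbegf lower in LYVE1+CX3CR1+ cells, and the libraries of 9 members did not overlap (40.9% of all genes). LYVE1+CX3CR1+ and MHCII+CD11c- macrophages then differed in Vegfb and Hbegf, 2 members against 5.54% of all genes, with 5 members not overlapping (21.9%). Hbegf and Nrp1, again 2 members, separated the MHCII+ subsets, lower where CD11c was present (4.03% of all genes), with 8 members not overlapping (36.6%). The median log2 fold change of the 10 members was 0.46 between LYVE1+CX3CR1+ and MHCII+CD11c+ macrophages of controls, beside 0.05 for all genes, and -0.76 between MHCII+CD11c+ and MHCII+CD11c- macrophages, beside -0.03. Those of the remaining subset contrasts were 0.04 beside -0.004 (LYVE1+CX3CR1+ against MHCII+CD11c- controls), and after IC 0.47 beside -0.12 (LYVE1+CX3CR1+ against MHCII+CD11c+), -0.06 beside -0.14 (LYVE1+CX3CR1+ against MHCII+CD11c-) and -0.58 beside -0.03 (MHCII+CD11c+ against MHCII+CD11c-).

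**Figure D1:**
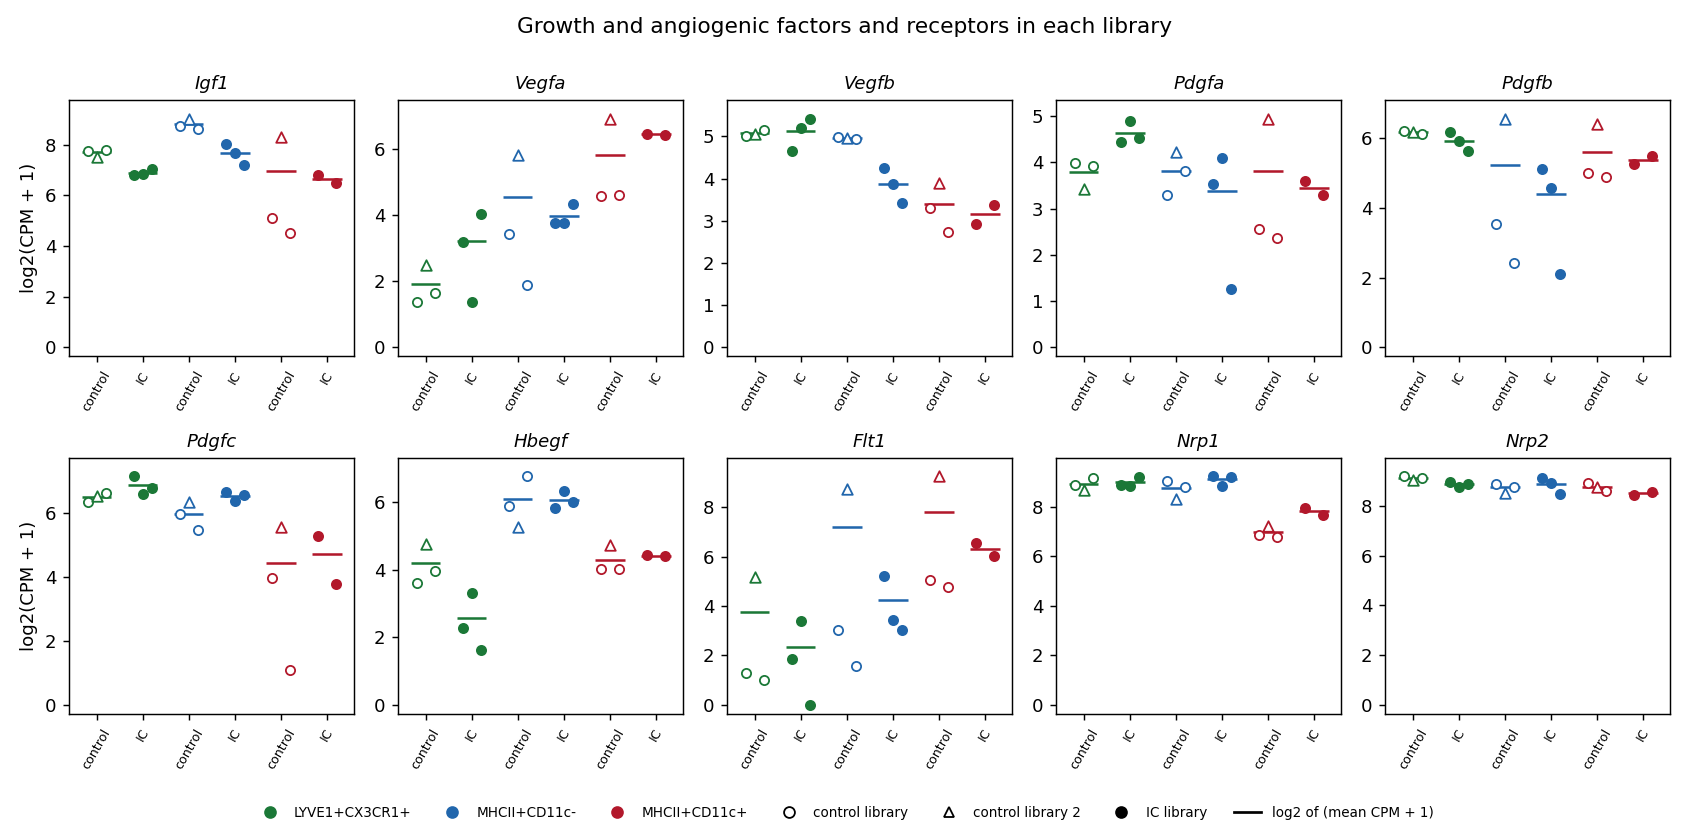
Each panel plots 1 member, with the 17 libraries by group along the horizontal axis and log2(CPM + 1) on the vertical axis; open symbols are control and filled symbols IC libraries, triangles are control libraries numbered 2, and lines are the log2 of the group's mean CPM plus 1. Nrp2 is high in all 6 groups, Nrp1 is lower in MHCII+CD11c+ libraries, and the triangles of Flt1 and Vegfa stand above the other control libraries of their subset.

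Compared per kilobase of exons (CPM per kb of the union of exons), the co-receptors led the list in LYVE1+CX3CR1+ control macrophages, with Nrp1 at 49.8 ± 8.63 and Nrp2 at 47.7 ± 2.43 (SD, n = 3), a pair that did not differ beyond its spread. Igf1, Vegfb, Pdgfc and Pdgfb followed closely together there, from 20.9 ± 2.03 down to 17.1 ± 0.575, and Vegfa was last at 0.643 ± 0.377. In MHCII+CD11c- controls, Igf1 (45.3 ± 6.62), Nrp1 (44.1 ± 11.1) and Nrp2 (36.5 ± 4.64) lay within each other's spread at the top. MHCII+CD11c+ controls had Nrp2 first at 36.9 ± 4.18, with Nrp1 at 12.7 ± 2.12, and Vegfa, which was last in LYVE1+CX3CR1+ controls, was the third at 13.1 ± 13.2, a value whose spread is as large as its mean. These levels depend on the gene length used. With the longest transcript in place of the exon union, Nrp1 was at 134 and Nrp2 at 84.0 in LYVE1+CX3CR1+ controls, further apart than by the union. In MHCII+CD11c- controls Nrp1 was then at 118, above Nrp2 (64.2) and Igf1 (63.6), so Igf1 came after both co-receptors. In MHCII+CD11c+ controls Nrp1 moved from place 4 to 2 and Vegfa from place 3 to 6.

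Igf1 (chromosome 10, 87858265 to 87937042, plus strand of GRCm38), the gene of insulin-like growth factor 1, was at 214, 184 and 222 CPM in LYVE1+CX3CR1+ controls and at 109, 113 and 130 CPM after IC. MHCII+CD11c- macrophages had 426, 523 and 398 CPM in controls and 263, 204 and 146 CPM after IC. In both subsets every IC library lay below every control library. The fitted log2 fold changes, -0.81 ± 0.74 (SE) and -1.13 ± 0.74, did not pass the test (adjusted p = 0.699 and 0.715).

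Among MHCII+CD11c+ macrophages, Igf1 was at 33.0, 314 and 21.6 CPM in the controls and at 111 and 88.3 CPM after IC, so the controls spanned both IC libraries because of control library 2. With all libraries the log2 fold change was -0.31 ± 0.83 (adjusted p = 1). Without that 1 library it was 1.86 (adjusted p = 0.000301), and without control library 2 of all 3 subsets 1.85 (adjusted p = 0.000323). Igf1 calls elsewhere also turned on this library. Without it, IC against control in MHCII+CD11c- macrophages had a log2 fold change of -1.13 at an adjusted p of 0.00483, and a fit of only the groups compared also gave a call (-1.14, adjusted p = 0.0356). In that library Lyve1 stood at 382 CPM, against 303 and 137 CPM in the IC libraries, and its part in the Igf1 value was not tested.

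Between control subsets, every LYVE1+CX3CR1+ library had less Igf1 than every MHCII+CD11c- library (log2 fold change -1.12 ± 0.74, adjusted p = 0.765 with all libraries, 0.00336 without MHCII+CD11c+ control library 2 and 0.00193 with the groups compared fitted alone). MHCII+CD11c+ controls lay below MHCII+CD11c- controls in all libraries, 314 CPM in library 2 included (-1.86 ± 0.75, adjusted p = 0.175, and -4.02 at 2.55e-09 without it). With that library kept, DESeq2 (-1.88, adjusted p = 0.0485) and voom (-2.86, 0.00688) also called this Igf1 difference. LYVE1+CX3CR1+ against MHCII+CD11c+ controls was at 0.74 ± 0.73 (adjusted p = 0.603), and it passed without library 2 (2.91, 2.29e-08) and with voom (1.78, 0.0321). After IC, every LYVE1+CX3CR1+ and every MHCII+CD11c+ library likewise lay below every MHCII+CD11c- library in Igf1. With all libraries these differences did not pass the test (-0.80 ± 0.74, adjusted p = 0.597, and -1.035 ± 0.844, 0.729). They passed without MHCII+CD11c+ control library 2 (-0.80, adjusted p = 0.0193, and -1.03, 0.00803). The latter also passed with the groups compared fitted alone (0.027). The difference between the IC responses of LYVE1+CX3CR1+ and MHCII+CD11c+ macrophages was -0.50 ± 1.10 (adjusted p = 0.972) and became -2.67 (adjusted p = 0.00016) without that library, and that between MHCII+CD11c+ and MHCII+CD11c- macrophages went from 0.82 ± 1.09 (adjusted p = 1) to 2.99 (8.52e-05).

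Genes around IGF-1, chosen as a list of its receptors, binding proteins and adaptors, were 14 besides Igf1, of which 10 could be tested. Igf1r, the receptor gene, was present at 26.4 to 64.2 CPM in every library and was called in no contrast. Irs2, an adaptor below the insulin and IGF-1 receptors, was at 271, 293 and 294 CPM in LYVE1+CX3CR1+ controls and at 154, 193 and 149 CPM after IC. In this contrast 23 genes were called higher and 124 lower after IC, and fewer genes had a count in the IC libraries (11547 to 13842 against 16334 to 17237 at equal depth), whose part in the values was not tested. Irs2 fell by 0.79 ± 0.18 on the log2 scale (adjusted p = 0.0282), a call lost in 16 of 29 alternatives with an adjusted p of up to 0.173, among them leaving out LYVE1+CX3CR1+ IC library 1 or 3 or any LYVE1+CX3CR1+ control library. Igfbp4, which encodes a secreted protein that binds IGF-1, was at 75.9, 20.1 and 21.2 CPM in MHCII+CD11c+ controls, below all libraries of MHCII+CD11c- controls with 636, 204 and 596 CPM (-3.60 ± 0.59, adjusted p = 0.00212).

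VEGF genes went opposite ways between subsets. In control mice, LYVE1+CX3CR1+ cells had 21.4-fold less Vegfa and 3.37-fold more Vegfb than MHCII+CD11c+ cells. The Vegfa value rests on 10 to 17 counts per LYVE1+CX3CR1+ library. Its log2 fold change of -4.42 became -3.14 without MHCII+CD11c+ control library 2. That call was lost without LYVE1+CX3CR1+ control library 1 or 3. The 250 bases before the start of Vegfb, Vegfa and their shared receptor gene Flt1 are shown because these genes share a signalling system and differ in how they varied between libraries. The sequences are RefSeq's, on GRCm38.p6, each read on the minus strand from 5′ to 3′, at chr19:6987652-6987901 for Vegfb, chr17:46032378-46032627 for Vegfa and chr5:147726012-147726261 for Flt1. Capitals mark the GC box GGGCGG on either strand and, in Flt1, the cAMP response element TGACGTCA.
Vegfb: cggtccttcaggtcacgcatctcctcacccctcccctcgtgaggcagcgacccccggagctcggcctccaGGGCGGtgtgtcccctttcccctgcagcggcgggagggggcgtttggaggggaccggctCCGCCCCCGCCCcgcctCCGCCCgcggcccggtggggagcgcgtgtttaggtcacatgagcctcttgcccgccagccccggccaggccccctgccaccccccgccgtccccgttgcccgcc
Vegfa: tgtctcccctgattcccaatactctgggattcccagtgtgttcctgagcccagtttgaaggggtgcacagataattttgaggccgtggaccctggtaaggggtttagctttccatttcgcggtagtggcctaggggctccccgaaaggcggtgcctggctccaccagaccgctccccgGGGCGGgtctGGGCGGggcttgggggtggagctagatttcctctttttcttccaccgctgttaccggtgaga
Flt1: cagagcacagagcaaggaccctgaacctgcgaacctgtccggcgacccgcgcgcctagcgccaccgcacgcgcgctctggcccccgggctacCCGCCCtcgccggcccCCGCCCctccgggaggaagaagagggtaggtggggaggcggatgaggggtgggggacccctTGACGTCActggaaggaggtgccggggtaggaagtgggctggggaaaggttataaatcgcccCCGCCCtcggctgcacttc

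The Vegfb window holds 4 GC boxes, that of Vegfa 2 and that of Flt1 3, with 1 cAMP response element in the Flt1 window. Of 32851 mouse promoter windows of this length, 32.7% hold at least 1 GC box and 1.55% a cAMP response element. Promoter windows were matched for 8 members, and among the others Nrp2 has 5 GC boxes, Pdgfa 2, Nrp1 1, and Igf1 and Pdgfc 0. Such a match is a description of letters only.

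Vegfa (chromosome 17, 46016993 to 46032369, minus strand), the gene of the main vascular growth factor, was at 1.57, 4.59 and 2.09 CPM in LYVE1+CX3CR1+ controls, near the floor of 3 counts. MHCII+CD11c+ controls had 23.2, 122 and 23.4 CPM, so every one of them lay above every LYVE1+CX3CR1+ control. The log2 fold change was -4.42 ± 1.14 (adjusted p = 0.0194). It was lost without LYVE1+CX3CR1+ control library 1 or 3 (adjusted p = 0.0848 and 0.086), and without MHCII+CD11c+ control library 2 it was -3.14 (adjusted p = 0.0434).

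In MHCII+CD11c- macrophages, Vegfa was at 9.81, 55.5 and 2.67 CPM in controls and at 12.6, 12.6 and 19.5 CPM after IC, within the range of the controls (-0.64 ± 0.97, and 1.20 without control library 2, neither past the test). LYVE1+CX3CR1+ macrophages had 8.19, 1.57 and 15.3 CPM after IC, which overlapped with their controls at the low end (1.64 ± 1.14, adjusted p = 0.579). MHCII+CD11c+ macrophages after IC had 88.1 and 86.5 CPM, above control libraries 1 and 3 and below library 2 (0.63 ± 1.03). After IC these 2 libraries exceeded all 6 libraries of the other subsets, yet neither contrast passed the test (adjusted p = 0.07 against LYVE1+CX3CR1+ and 0.282 against MHCII+CD11c-). The first passed with DESeq2 (0.0231), with the groups compared fitted alone (0.0151), with library number as a block within treatment (6.32e-05), and without MHCII+CD11c- control library 2 (0.014) or 3 (0.0327) or MHCII+CD11c+ control library 2 (0.0288). The second passed with voom (0.0177), with the groups compared fitted alone (0.000367) and with that block (0.00144). Without the 3 control libraries numbered 2, both did (the first at a log2 fold change of -3.35 with an adjusted p of 0.000416, the second at 2.55 with 0.00652). Without MHCII+CD11c- control library 2 alone, MHCII+CD11c+ also exceeded MHCII+CD11c- controls (3.12, adjusted p = 0.0454), as it did with the block (1.56, 0.0345), which also placed Vegfa in LYVE1+CX3CR1+ below MHCII+CD11c- controls (-2.44, 0.0129).

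Vegfb (chromosome 19, 6982473 to 6987651, minus strand), whose product binds VEGFR1 and NRP1 but not VEGFR2, varied little between LYVE1+CX3CR1+ and between MHCII+CD11c- control libraries. In these subsets it was among the members with the smallest spread relative to the mean. Its spread was wider in MHCII+CD11c+ controls (9.51 ± 4.16 CPM, SD, n = 3). LYVE1+CX3CR1+ controls had 31.3, 32.2 and 34.3 CPM and MHCII+CD11c- controls 30.7, 30.2 and 29.8 CPM, against 8.93, 13.9 and 5.67 CPM in MHCII+CD11c+ controls. No library of MHCII+CD11c+ cells overlapped with the other subsets. LYVE1+CX3CR1+ exceeded MHCII+CD11c+ controls with a log2 fold change of 1.75 ± 0.37 (adjusted p = 0.00171), and MHCII+CD11c+ lay below MHCII+CD11c- controls at -1.64 ± 0.37 (adjusted p = 0.00565). Both calls held in 30 of 30 alternatives. The 9 macrophage markers, all called lower in MHCII+CD11c+ controls in the same contrasts, had median log2 fold changes of 2.10 and -2.09, and their part in the Vegfb values was not tested.

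After IC, Vegfb was at 24.0, 35.6 and 41.9 CPM in LYVE1+CX3CR1+, 18.0, 13.6 and 9.63 CPM in MHCII+CD11c-, and 6.61 and 9.35 CPM in MHCII+CD11c+ macrophages. The 3 subsets did not overlap and were ordered as listed. LYVE1+CX3CR1+ macrophages were higher than MHCII+CD11c+ (2.08 ± 0.44, adjusted p = 0.00231, 0.069 without MHCII+CD11c+ IC library 1) and than MHCII+CD11c- (1.29 ± 0.37, adjusted p = 0.0388). The latter was lost in 13 of 30 alternatives, with an adjusted p of up to 0.171. These include leaving out LYVE1+CX3CR1+ IC library 2 (0.0652) or 3 (0.0973), any LYVE1+CX3CR1+ control library (0.0539 to 0.0566), MHCII+CD11c- IC library 2 (0.118) or 3 (0.171) and either MHCII+CD11c+ IC library (0.0526 and 0.0525).

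All 3 MHCII+CD11c- libraries after IC had less Vegfb than all 3 controls of that subset, 13.7 ± 4.17 against 30.2 ± 0.478 CPM (SD, n = 3). The log2 fold change of -1.13 ± 0.37 did not pass the edgeR test (adjusted p = 0.206), whereas DESeq2 gave -1.18 with an adjusted p of 0.0259. In LYVE1+CX3CR1+ macrophages the IC value was 0.05 ± 0.36 (adjusted p = 0.985).

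Flt1 (chromosome 5, 147561604 to 147726011, minus strand), the gene of VEGFR1, had a wide spread between libraries of 1 group. LYVE1+CX3CR1+ controls had 1.42, 35.4 and 0.977 CPM, MHCII+CD11c- controls 7.25, 426 and 2.01 CPM, and MHCII+CD11c+ controls 31.9, 610 and 26.5 CPM, each with library 2 far above the others. After IC the values were 2.63, 9.44 and 0 CPM, 36.1, 9.68 and 7.16 CPM, and 93.4 and 64.5 CPM in the same order of subsets. With all libraries and no block, no contrast of Flt1 was called. For IC the log2 fold changes were -1.46 ± 2.29, -3.04 ± 1.94 and -1.50 ± 2.07 with all libraries, and without control library 2 of each subset they had the opposite sign, at 1.86, 1.87 and 1.42 (adjusted p = 0.585, 0.448 and 0.762), so no direction of Flt1 after IC can be given. Without the 3 control libraries numbered 2, LYVE1+CX3CR1+ lay below MHCII+CD11c+ macrophages in controls (-4.63, adjusted p = 0.00881; -4.27 ± 2.06 and 0.22 with them) and after IC (-4.20, adjusted p = 0.00504; -4.22 ± 2.33 and 0.292 with them). With library number as a block within treatment and every library kept, Flt1 was called in the same 2 contrasts (-4.56, adjusted p = 0.0068, in controls and -3.83, 0.029, after IC), and the second passed also with the groups compared fitted alone (-4.18, 0.0194).

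Endothelial markers were compared with Flt1 library by library, since vessel cells also carry Flt1 and Kdr. The summed endothelial markers (12 genes in the table) were at 10.8, 31.1 and 64.5 CPM in the control libraries numbered 2, against 11.2 and 15.5, 35.6 and 32.4, and 33.8 and 15.9 CPM in the other controls of each subset. The sum was thus highest of all 17 libraries in the library with most Flt1 and was not raised in library 2 of the other subsets. Vwf, the gene of von Willebrand factor, made up most of it there, at 48.7 CPM against 23.0 and 12.9 CPM in the other MHCII+CD11c+ controls, and was at 21.03 CPM in MHCII+CD11c- control library 2 against 13.4 and 8.02 CPM. In MHCII+CD11c+ control library 2, Pecam1 was at 8.92, Kdr at 2.97 and Cdh5 at 2.60 CPM, Esam and Plvap were below 1 CPM, and Tek, Tie1, Emcn, Erg, Cldn5 and Egfl7 were at 0. LYVE1+CX3CR1+ IC library 2, the highest of its group in Flt1 at 9.44 CPM, had an endothelial sum of 47.5 CPM against 8.78 and 10.8 CPM. The part of these genes' source in the Flt1 values was not tested.

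Kdr, the gene of VEGFR2, was at 0 CPM in all LYVE1+CX3CR1+ libraries after IC and at 12.5 and 9.71 CPM in MHCII+CD11c+ libraries after IC, at least 10.9-fold higher when the former are set to the floor of 3 counts per library (adjusted p = 0.00874). With 1 surrogate variable this call was lost (adjusted p = 0.312). These LYVE1+CX3CR1+ IC libraries had fewer genes with a count at equal depth (11547 to 13842) than the MHCII+CD11c+ IC libraries (16704 and 16035), and the part of this in the zeros was not tested. Pgf, the gene of placental growth factor, was likewise at 0 CPM in the former and at 3.53 and 2.75 CPM in the latter, at least 3.07-fold higher (adjusted p = 0.0389, lost in 12 of 27 alternatives). Flt4, the gene of VEGFR3, was at 3.91 CPM or less in every library. Of 6 further VEGF symbols sought, which include Figf, an older symbol of Vegfd, 5 were in the table. Only Kdr and Pgf could be tested, and no other contrast of theirs was called.

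PDGF ligand genes were read in every subset, with Pdgfb and Pdgfc above Pdgfa in LYVE1+CX3CR1+ macrophages per kilobase. Pdgfb (chromosome 15, 79995874 to 80014977, minus strand), whose product recruits mural cells to vessels, was at 72.6, 72.4 and 68.4 CPM in LYVE1+CX3CR1+ controls and at 72.3, 59.5 and 48.5 CPM after IC. MHCII+CD11c- macrophages had 10.7, 94.2 and 4.35 CPM in controls and 33.9, 23.1 and 3.3 CPM after IC. Only control library 2 reached the LYVE1+CX3CR1+ range there, and without it the log2 fold change of Pdgfb for IC turned from -0.87 to 1.39, neither past the test.

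With all libraries, Pdgfb did not differ between LYVE1+CX3CR1+ and MHCII+CD11c- controls by the test (0.94 ± 0.93, adjusted p = 0.914). Without MHCII+CD11c- control library 2 the log2 fold change was 3.20 (adjusted p = 0.0356), and without the 3 control libraries numbered 2 it was 3.15 (adjusted p = 0.0143). MHCII+CD11c+ macrophages had 31.3, 84.9 and 28.7 CPM in controls and 37.2 and 43.8 CPM after IC, between control libraries 1 and 3 and control library 2. Without MHCII+CD11c- control library 2, MHCII+CD11c+ exceeded MHCII+CD11c- controls (2.65, adjusted p = 0.0361). Cspg4, a proteoglycan gene of mural cells, moved with Pdgfb across MHCII+CD11c- controls, at 28.2, 336 and 13.04 CPM. It stood at 369 to 472 CPM in LYVE1+CX3CR1+ controls. Summed mural cell markers (6 genes, Cspg4 included) were at 109, 339 and 24.4 CPM in these MHCII+CD11c- controls and at 374 to 476 CPM in LYVE1+CX3CR1+ controls. The other mural markers together were thus lowest in MHCII+CD11c- control library 2, and Cspg4 made up most of the sum in LYVE1+CX3CR1+ controls. The part of Cspg4 in the Pdgfb values was not tested.

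Pdgfc (chromosome 3, 81036416 to 81214040, plus strand), a ligand of PDGFRA that needs cleavage to become active, was at 81.7, 91.3 and 99.6 CPM in LYVE1+CX3CR1+ controls and at 61.6, 81.1 and 43.5 CPM in MHCII+CD11c- controls. These did not overlap, but only by 81.7 against 81.1 CPM, and the log2 fold change of 0.55 ± 0.68 did not pass the test (adjusted p = 0.951). MHCII+CD11c+ controls had 14.7, 46.8 and 1.14 CPM, all below the LYVE1+CX3CR1+ libraries. That difference, 2.07 ± 0.72 on the log2 scale, missed the threshold (adjusted p = 0.0782). It passed with DESeq2 (0.0285), with voom (0.00752), with library number as a block within treatment (0.0457), without MHCII+CD11c+ control library 2 (3.39, adjusted p = 0.00169) or 3 (1.56, 0.0291), and without the 3 control libraries numbered 2 (3.35, 0.00393).

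After IC, Pdgfc was at 142, 96.3 and 111 CPM in LYVE1+CX3CR1+, 99.8, 82.2 and 93.6 CPM in MHCII+CD11c-, and 37.8 and 12.6 CPM in MHCII+CD11c+ macrophages. MHCII+CD11c+ libraries again lay below all others (2.20 ± 0.83 for LYVE1+CX3CR1+ against MHCII+CD11c+, adjusted p = 0.117). Of 30 alternatives 7 called that difference, among them DESeq2 (0.0368), voom (0.00192), the groups compared fitted alone (0.0165), 1 surrogate variable (0.032) and leaving out MHCII+CD11c+ control library 2 (0.0206) or 3 (0.00391). Against MHCII+CD11c-, MHCII+CD11c+ macrophages passed without MHCII+CD11c+ control library 3 after IC (-1.86, adjusted p = 0.0243; 0.00339 with voom and 0.024 with the groups compared fitted alone) and without library 2 in controls (-2.85, 0.00914). In MHCII+CD11c- macrophages every IC library exceeded every control, 91.9 ± 8.91 against 62.1 ± 18.8 CPM, with a log2 fold change of 0.56 ± 0.69 that did not pass the test (adjusted p = 0.905).

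Pdgfa (chromosome 5, 138976014 to 138997370, minus strand), which encodes a ligand of PDGFRA, was at 14.8, 9.73 and 14.1 CPM in LYVE1+CX3CR1+ controls and at 20.8, 29.0 and 22.0 CPM after IC, every IC library above every control. The log2 fold change was 0.89 ± 0.67 (adjusted p = 0.6). MHCII+CD11c- macrophages had 8.74, 17.7 and 13.04 CPM in controls and 10.6, 16.1 and 1.38 CPM after IC, and MHCII+CD11c+ macrophages 4.89, 29.9 and 4.16 CPM and 11.02 and 8.79 CPM, both with overlap. Without MHCII+CD11c+ control library 2 the log2 fold change for IC in that subset turned from -0.41 to 1.12, neither past the test. Neither Pdgfa nor Nrp2 was called in any contrast under any alternative. An antisense gene, 6330403L08Rik, overlaps with Pdgfa and had 833 counts over all libraries, and whether the counting used the strand is not given in the sources used here.

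The PDGF receptors were low. Pdgfra was at most 7.66 CPM (36 counts) in any library and Pdgfrb at most 15.7 CPM (76 counts, in an MHCII+CD11c- IC library), and of 4 PDGF genes besides the members the 2 that could be tested were called in no contrast. Summed fibroblast markers ranged from 10.6 to 238 CPM over the libraries.

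Hbegf (chromosome 18, minus strand), the gene of heparin-binding EGF-like growth factor, was highest in MHCII+CD11c- macrophages before and after IC. Those controls had 57.6, 37.5 and 108 CPM, against 11.2, 26.2 and 14.5 CPM in LYVE1+CX3CR1+ and 15.1, 25.4 and 15.1 CPM in MHCII+CD11c+ controls. No MHCII+CD11c- control library overlapped with the other subsets. The log2 fold change was -1.98 ± 0.42 for LYVE1+CX3CR1+ (3.93-fold lower, adjusted p = 0.0132) and -1.85 ± 0.42 for MHCII+CD11c+ macrophages (3.60-fold lower, adjusted p = 0.00565).

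These Hbegf calls rested on single libraries in part. The first was lost without LYVE1+CX3CR1+ control library 1 (adjusted p = 0.114) or 3 (0.1) and without MHCII+CD11c- control library 3 (0.143). The second was lost without MHCII+CD11c- control library 3 (adjusted p = 0.0826). Without the 3 control libraries numbered 2, the first was -2.71 (adjusted p = 0.00146).

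After IC, Hbegf was at 3.8, 8.81 and 2.07 CPM in LYVE1+CX3CR1+, 55.9, 79.5 and 63.0 CPM in MHCII+CD11c-, and 20.4 and 20.2 CPM in MHCII+CD11c+ macrophages, 3 ranges that did not overlap. LYVE1+CX3CR1+ macrophages were 13.2-fold below MHCII+CD11c- (-3.72 ± 0.48, adjusted p = 3.61e-05), a call kept in all 30 alternatives, with a highest adjusted p of 0.0196. They were also 4.05-fold below MHCII+CD11c+ macrophages (-2.02 ± 0.50, adjusted p = 0.00821), which was lost with voom (0.114) and with the groups compared fitted alone (0.143).

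MHCII+CD11c+ macrophages after IC had less Hbegf than MHCII+CD11c- (-1.70 ± 0.48, adjusted p = 0.0437). That call was lost in 9 of 30 alternatives, among them without MHCII+CD11c+ IC library 1 (0.258) or 2 (0.411), MHCII+CD11c- IC library 1 (0.0563), 2 (0.155) or 3 (0.0884), MHCII+CD11c- control library 1 (0.0597) and LYVE1+CX3CR1+ control library 3 (0.0621).

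Within LYVE1+CX3CR1+ macrophages, every IC library had less Hbegf than every control, 4.90 ± 3.50 against 17.3 ± 7.90 CPM (SD, n = 3). The log2 fold change of -1.77 ± 0.47 narrowly missed the threshold (adjusted p = 0.0663). It passed with DESeq2 (-1.71, adjusted p = 0.0269), with no filter on low counts (-1.72, 0.0406) and without LYVE1+CX3CR1+ IC library 2 (-2.44, 0.0305), the library with the endothelial sum of 47.5 CPM. Gene detection at equal depth was lower in these IC libraries than in their controls (11547 to 13842 against 16334 to 17237 genes), and its part in the Hbegf value was not tested. In the MHCII+ subsets the IC values were -0.03 ± 0.40 and 0.12 ± 0.46, and libraries overlapped. The Hbegf responses of LYVE1+CX3CR1+ macrophages differed from those of MHCII+CD11c- by -1.75 ± 0.61 and from those of MHCII+CD11c+ by -1.89 ± 0.65 on the log2 scale, and neither difference passed the test (adjusted p = 0.507 and 0.4).

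Egfr, the receptor gene for HB-EGF, was at 40.3, 56.0 and 65.5 CPM in LYVE1+CX3CR1+ and 83.4, 43.8 and 98.6 CPM in MHCII+CD11c- controls but at 4.47, 8.92 and 6.81 CPM in MHCII+CD11c+ controls. No MHCII+CD11c+ library reached the others, and its log2 fold change was -3.47 ± 0.38 against MHCII+CD11c- (adjusted p = 2.23e-06), while LYVE1+CX3CR1+ exceeded MHCII+CD11c+ by 2.99 ± 0.37 (adjusted p = 3.78e-06). Egfr kept the same calls after IC at -3.11 (adjusted p = 7.90e-05) and 1.99 (0.00171), and all 4 held in 30 of 30 alternatives. Erbb4, the other receptor gene for HB-EGF, was at 4.01 CPM or less in every library. Of 18 genes of the EGF family and its sheddases besides Hbegf, 14 were tested. Between LYVE1+CX3CR1+ and MHCII+CD11c+ controls, 3 were higher (Egfr, and Rhbdf1 and Rhbdf2, which encode iRhoms that escort the sheddase ADAM17) and 1 was lower (Areg, amphiregulin, another EGFR ligand). Rhbdf1 had a log2 fold change of 3.26 ± 0.63 (adjusted p = 0.00132) and Rhbdf2 of 1.19 ± 0.30 (adjusted p = 0.00864, 0.0536 without MHCII+CD11c+ control library 3). Areg, at 2.52, 7.30 and 4.88 CPM against 75.3, 216 and 97.6 CPM, had -4.76 ± 1.16 (adjusted p = 0.0152), lost without LYVE1+CX3CR1+ control library 1 or 3 with an adjusted p of up to 0.0701. After IC, Erbb3, also of this list, was lower in LYVE1+CX3CR1+ than MHCII+CD11c- macrophages (-3.25 ± 0.83, adjusted p = 0.0196). The part of the lower gene detection of the LYVE1+CX3CR1+ IC libraries in the Erbb3 value was not tested.

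Nrp1 (chromosome 8, 128358604 to 128503363, plus strand) parted MHCII+CD11c+ macrophages from both other subsets with the smallest adjusted p among the 10 members. LYVE1+CX3CR1+ controls had 470, 413 and 579 CPM and MHCII+CD11c- controls 533, 318 and 443 CPM, against 117, 148 and 109 CPM in MHCII+CD11c+ controls. The lowest of the former, 318 CPM, was still above the highest of the latter. LYVE1+CX3CR1+ exceeded MHCII+CD11c+ controls 3.91-fold (log2 1.97 ± 0.20, adjusted p = 2.85e-07), and MHCII+CD11c+ lay 3.46-fold below MHCII+CD11c- controls (-1.79 ± 0.20, adjusted p = 3.14e-06). In 30 of 30 alternatives both calls held, with highest adjusted p of 9.47e-05 and 0.00187. The 9 macrophage markers moved the same way in these contrasts, with median log2 fold changes of 2.10 and -2.09, and dendritic cell markers were higher in MHCII+CD11c+ than LYVE1+CX3CR1+ controls (5 of 6 called). Their part in the Nrp1 values was not tested.

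After IC, Nrp1 was at 473, 453 and 593 CPM in LYVE1+CX3CR1+ and 602, 459 and 596 CPM in MHCII+CD11c- macrophages, and at 249 and 205 CPM in MHCII+CD11c+ macrophages. These 2 libraries lay above all 3 controls of their subset and below all libraries of the others. LYVE1+CX3CR1+ macrophages were 2.23-fold higher than MHCII+CD11c+ (1.16 ± 0.23, adjusted p = 0.00123), and MHCII+CD11c+ 2.44-fold lower than MHCII+CD11c- (-1.28 ± 0.23, adjusted p = 0.00132). Both were lost without MHCII+CD11c+ IC library 2, with adjusted p of 0.0515 and 0.078.

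Nrp1 in MHCII+CD11c+ macrophages, 125 ± 20.7 CPM in controls (SD, n = 3) and 227 ± 30.8 CPM after IC (n = 2), had a log2 fold change of 0.86 ± 0.22 and did not pass the test (adjusted p = 0.148). It did so with no filter on low counts (0.88, adjusted p = 0.049), without MHCII+CD11c+ control library 2 (1.01, 0.0418) and without the 3 control libraries numbered 2 (1.0, 0.0118). Other values moved with it: Lyve1 was at 303 and 137 CPM after IC against 29.8 and 25.3 CPM in control libraries 1 and 3, and summed macrophage markers were at 6744 and 4984 CPM against 3069 and 2992. Summed neutrophil markers moved the other way, at 26.4 and 30.8 CPM after IC against 580, 99.4 and 306 CPM in the controls. Their part in the Nrp1 value was not tested. In LYVE1+CX3CR1+ and MHCII+CD11c- macrophages the IC values of Nrp1 were 0.06 ± 0.20 and 0.36 ± 0.20, with overlap.

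Nrp2 (chromosome 1, 62703285 to 62818695, plus strand) was the most even of the 10 members. Its 17 values lay between 352 and 591 CPM, with group means from 367 ± 20.7 to 565 ± 28.8 CPM. LYVE1+CX3CR1+ controls, at 591, 534 and 568 CPM, lay above all other controls (481, 373 and 442 CPM in MHCII+CD11c- and 488, 434 and 389 CPM in MHCII+CD11c+). After IC all 3 LYVE1+CX3CR1+ libraries, at 504, 436 and 476 CPM, were below their controls (-0.26 ± 0.17, adjusted p = 0.528), as were the MHCII+CD11c+ libraries at 352 and 381 CPM (-0.25 ± 0.19, adjusted p = 1), while MHCII+CD11c- libraries at 562, 490 and 361 CPM overlapped with theirs.

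**Figure D2:**
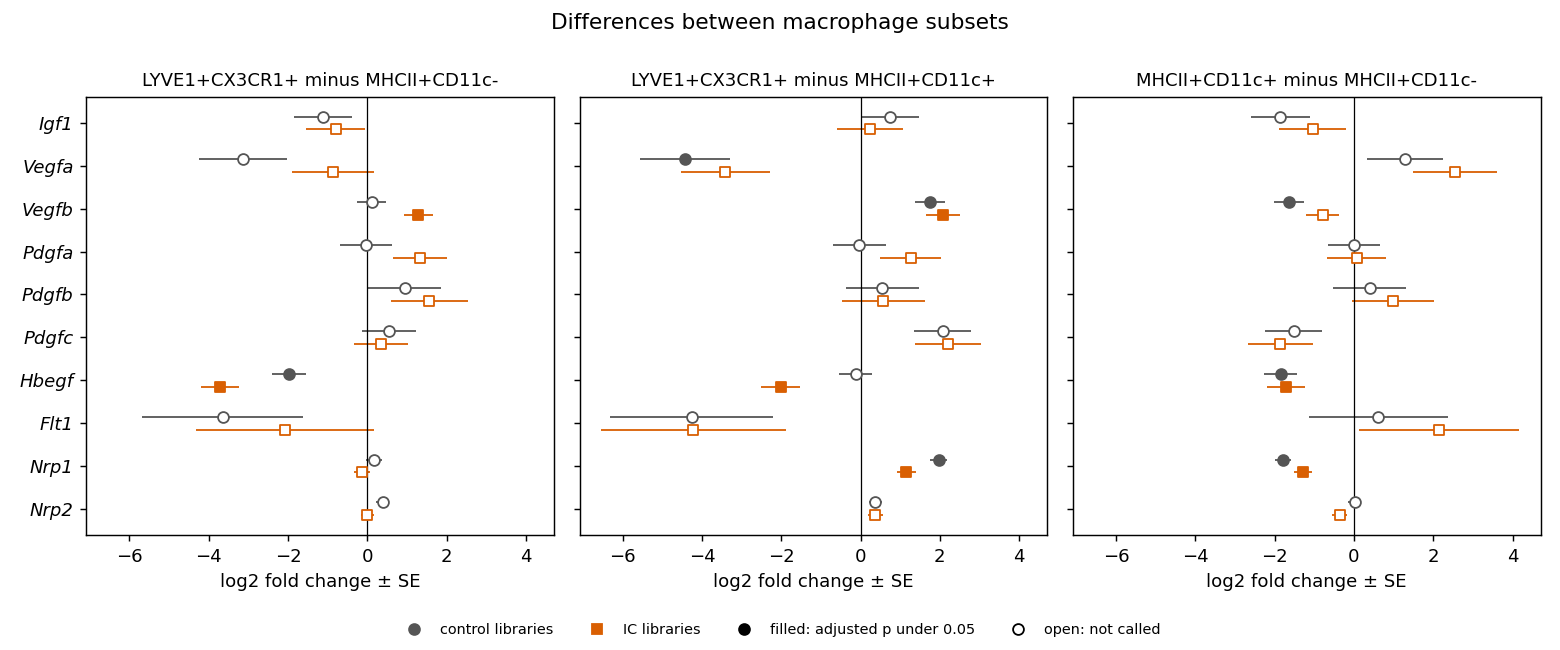
Log2 fold change ± SE of each member in the contrasts between subsets, in controls and after IC; filled points have an adjusted p under 0.05. Nrp1 and Vegfb are lower in MHCII+CD11c+ macrophages in controls, Hbegf in LYVE1+CX3CR1+ lies below MHCII+CD11c- macrophages in both treatments, and Flt1 and Vegfa have the widest errors.

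Neuropilin partners, a list of semaphorins, plexins and an adaptor, held 18 genes, of which 14 were tested. Between LYVE1+CX3CR1+ and MHCII+CD11c+ macrophages, 3 were higher and 3 lower in controls, and 2 were higher and 5 lower after IC. Plxnd1, a plexin of vessels and immune cells, was at 249, 230 and 255 CPM in LYVE1+CX3CR1+ and 1257, 563 and 1059 CPM in MHCII+CD11c+ controls, without overlap and opposite in order to Nrp1. Its log2 fold change was -1.97 ± 0.25 in controls (adjusted p = 6.17e-06) and -2.84 ± 0.27 after IC (adjusted p = 4.00e-07), and both held in 30 of 30 alternatives.

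Plxnd1 was also the only partner called for IC. It was at 99.8, 151 and 103 CPM in LYVE1+CX3CR1+ macrophages after IC, below all 3 controls, and fell by 1.05 ± 0.24 on the log2 scale (adjusted p = 0.0386), which was lost in 18 of 29 alternatives with an adjusted p of up to 0.216, among them leaving out LYVE1+CX3CR1+ IC library 1 or 3 or any LYVE1+CX3CR1+ control library. As for Irs2, the lower gene detection of these IC libraries moved with this fall, and its part was not tested. Plxna1, a plexin that pairs with NRP1 for class 3 semaphorins, was at 98.0, 59.8 and 85.9 CPM in LYVE1+CX3CR1+ and 198 and 251 CPM in MHCII+CD11c+ macrophages after IC (-1.47 ± 0.21, adjusted p = 3.35e-05, held in 30 of 30). Sema4a, another semaphorin, was at 58.8, 44.7 and 47.3 CPM in LYVE1+CX3CR1+ and 186, 176 and 256 CPM in MHCII+CD11c- macrophages after IC (-2.03 ± 0.32, adjusted p = 0.000949, 0.122 with voom). Sema4d, a semaphorin that binds plexins of the B class, was at 3.46, 3.51 and 2.93 CPM in LYVE1+CX3CR1+ and 77.9, 28.1 and 98.0 CPM in MHCII+CD11c+ controls (-4.35 ± 0.67, adjusted p = 0.000219).

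**Figure D3:**
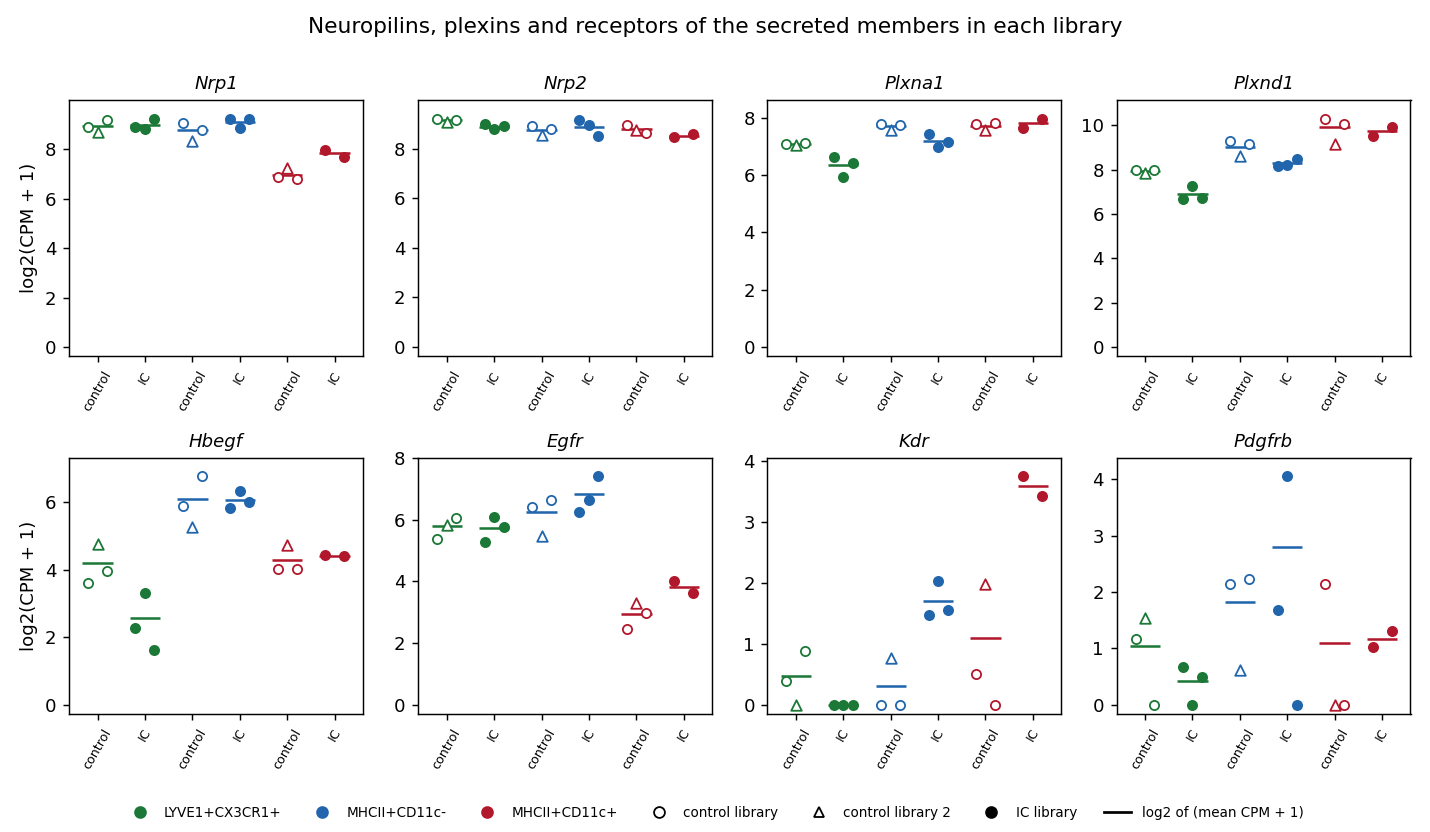
Log2(CPM + 1) of Nrp1, Nrp2, Plxna1, Plxnd1, Hbegf, Egfr, Kdr and Pdgfrb in each of the 17 libraries by group, with open symbols for control, filled symbols for IC, triangles for control libraries numbered 2 and lines for the log2 of the mean CPM plus 1. Egfr and Nrp1 are lowest in MHCII+CD11c+ macrophages, Plxnd1 is highest there, and Pdgfrb and Kdr stay near 0 in most libraries.

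IC against control, over all members, gave no call in any subset. In LYVE1+CX3CR1+ macrophages 0 of 10 members passed (0.963% of all genes), 1 had an unadjusted p under 0.05, DESeq2 called 1, and the libraries of 4 members did not overlap (21.6% of all genes), with Igf1, Hbegf and Nrp2 lower and Pdgfa higher after IC. MHCII+CD11c- macrophages likewise had 0 calls (0.701% of all genes), 1 unadjusted p under 0.05, 1 call by DESeq2 and 3 members without overlap (17.2%), Igf1 and Vegfb lower and Pdgfc higher. MHCII+CD11c+ macrophages, with 2 IC libraries, had 0 calls (0.216% of all genes), 1 unadjusted p under 0.05, 0 calls by DESeq2 and 2 members without overlap (23.1%), Nrp1 higher and Nrp2 lower.

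Median log2 fold changes of the 10 members were -0.10, -0.56 and -0.26 in these subsets, beside -0.14, -0.03 and 0.01 for all genes. Differences between the IC responses of subsets called 0 members in each of 3 interactions, against 0.0262%, 0.0327% and 0% of all genes (in the last, 496 genes had an unadjusted p under 0.05; LYVE1+CX3CR1+ against MHCII+CD11c-, LYVE1+CX3CR1+ against MHCII+CD11c+, and MHCII+CD11c+ against MHCII+CD11c-). Unadjusted p under 0.05 were found for 2, 2 and 0 members, and the lowest adjusted p of a member was 0.507, 0.4 and 1. DESeq2 called 0 members in each interaction. Control libraries are shared between the IC contrasts and the contrasts of control subsets.

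**Figure D4:**
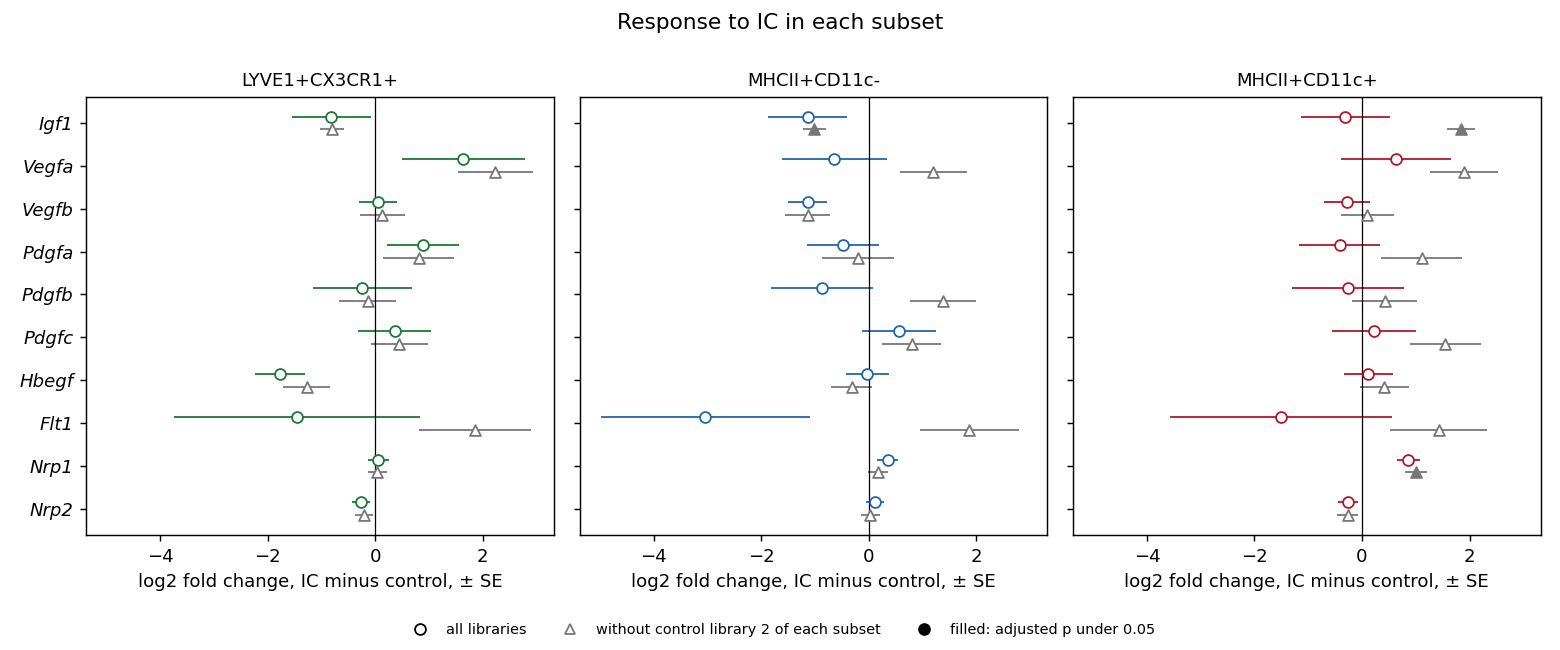
Log2 fold change ± SE of each member for IC against control in the 3 subsets; filled points have an adjusted p under 0.05, and grey triangles are the values without control library 2 of each subset. No circle is filled. The filled triangles are Igf1 in both MHCII+ subsets and Nrp1 in MHCII+CD11c+ macrophages, and the triangle of Igf1 in MHCII+CD11c+ macrophages lies at 1.85 against -0.31 with all libraries.

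Other growth factor genes had no call for IC in any subset. Their list held 33 symbols besides the members, older symbols of the same genes included (Ctgf, Cyr61 and Nov), of which 21 could be tested. Between LYVE1+CX3CR1+ and MHCII+CD11c+ controls 4 were higher (Grn, Gas6, Ccn1 and Ccn2) and 2 lower (Met and Thbs1). Gas6, a ligand of the TAM receptors by which macrophages recognise dying cells, was at 811, 658 and 930 CPM in LYVE1+CX3CR1+ and 48.1, 97.9 and 49.9 CPM in MHCII+CD11c+ controls (3.61 ± 0.33, adjusted p = 6.74e-07). Thbs1, the gene of the angiogenesis inhibitor thrombospondin 1, was at 8.35, 3.24 and 7.12 CPM and 172, 117 and 155 CPM in the same groups (-4.52 ± 0.73, adjusted p = 0.000959). Met, the receptor of hepatocyte growth factor, was at 0 CPM in LYVE1+CX3CR1+ macrophages after IC and at 12.9 and 19.1 CPM in MHCII+CD11c+, at least 15.6-fold higher against the floor (adjusted p = 0.00109), a zero found in the libraries with lower gene detection, whose part was not tested. Each of these 3 calls was kept in all 30 alternatives.

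Oxygen sensing genes, a list of 9 that were all tested, had no call for IC either. Hif1a, whose product activates Vegfa when oxygen is short, was at 155, 143 and 136 CPM in MHCII+CD11c+ and 92.6, 92.1 and 75.2 CPM in MHCII+CD11c- controls (0.74 ± 0.17, adjusted p = 0.00671, held in 30 of 30 alternatives). Hif3a was at or under the floor in MHCII+CD11c+ controls and at least 6.37-fold higher in MHCII+CD11c- controls (adjusted p = 0.00885). Vhl, whose product marks HIF proteins for breakdown, was at 11.02, 8.65 and 8.37 CPM in LYVE1+CX3CR1+ and 25.7, 34.6 and 32.2 CPM in MHCII+CD11c+ controls (-1.72 ± 0.50, adjusted p = 0.0196, up to 0.115 when LYVE1+CX3CR1+ control library 2 or 3 or the 3 control libraries numbered 2 were left out).

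Genes most like each member were found by Pearson correlation of log2 CPM over the 17 libraries, which share the subsets, so the values describe the subset pattern and carry no test. Nrp1 was most like Maf (r = 0.979), Abca1 (0.975) and Arhgef10l (0.973), and Nrp2 most like Madd (0.778), Poc1b (0.727) and Ip6k1 (0.725). Among the ligands, Igf1 came closest to Dse (0.895), Rnaset2b (0.866) and Septin8 (0.865), Vegfa to Dhrs9 (0.908), H2-Q6 (0.899) and Areg (0.884), and Vegfb to Rnf167 (0.950), Poglut3 (0.948) and Cd33 (0.926). Pdgfa came closest to Mrpl10 (0.899), Map3k20 (0.879) and Alkbh2 (0.863), Pdgfb to Cd9 (0.949), Actn1 (0.936) and Gm5424 (0.930), and Pdgfc to Etv1 (0.978), Nr1d1 (0.968) and Gprc5b (0.965). Hbegf came closest to Car3 (0.924), Gvin-ps4 (0.921) and Ccl2 (0.916), and Flt1 to Clec7a (0.907), AA467197 (0.866) and Rpl39 (0.848). Between members, the highest values were 0.825 for Pdgfc and Nrp1, 0.727 for Vegfa and Flt1 and 0.70 for Vegfb and Pdgfc.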

How the data were processed

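RNA of sorted synovial macrophages was sequenced in 17 libraries of 6 groups, which were assigned from the labels. The authors prepared stranded libraries (Takara pico kit, 5 ng RNA input), used Trim Galore and FastQC on the reads, mapped to mm10 by HISAT2 and ran featureCounts for genes. The deposited values are raw counts per gene symbol. Versions, annotation and strand use are not given in the sources used here. The authors tested with DESeq2 after sva. In the joint table, which equalled the single files for 17 of 17 libraries, 1 column matched no sample, summed to 0 and was not used. Replicates differed beyond sampling noise (chi-square divided by its degrees of freedom at least 6.77 for any pair).

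The test was that of edgeR 4.0.16 in R 4.3.3 (filterByExpr with a minimum count of 10, TMM, robust glmQLFit with 1 mean per group over all libraries, 11 residual degrees of freedom, quasi-likelihood F test, Benjamini-Hochberg adjustment over 15272 genes per contrast). Calls are at an adjusted p under 0.05. Alternatives were DESeq2 1.42.0, voom of limma 3.58.1, 1 surrogate variable of sva 3.50.0, other scalings, filters and depths, replicate blocks and leaving out libraries. The fitting script was tested on simulated data. Levels are mean ± SD of CPM, fold changes have standard errors. Floors cover counting error only. Gene positions are from GENCODE M21, in which 22266 symbols (97.4%) were found. Named list genes were up to 4 per list, called without overlap of the groups and with the smallest p, plus the receptors of the members, and others named were chosen after their values were seen. The members and lists were chosen with earlier results of these data known.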

Additional observations from a re-analysis of the deposited data

How the results depend on the processing

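Of the members' fold changes in the 9 contrasts of IC and of subsets under the alternatives, 2499 kept direction and side of the threshold, 65 passed it newly, 33 no longer passed it and 72 changed direction. In the 3 interactions 53 of 900 changed direction, none of them called by edgeR, DESeq2 or voom. The changes of direction of called values are both Igf1 for IC in MHCII+CD11c+ macrophages, at 1.86 without MHCII+CD11c+ control library 2 and 1.85 without control library 2 of all 3 subsets, an alternative chosen after seeing the data. The other 70 were called neither with all libraries nor under the alternative. Under that added alternative, IC values on the log2 scale turned to 1.86 for Flt1 in LYVE1+CX3CR1+, to 1.20 for Vegfa, 1.38 for Pdgfb and 1.87 for Flt1 in MHCII+CD11c-, and to 0.10 for Vegfb, 1.11 for Pdgfa, 0.42 for Pdgfb and 1.42 for Flt1 in MHCII+CD11c+ macrophages. In its control contrasts, Pdgfa turned to 0.38 and 1.62 for LYVE1+CX3CR1+ against the MHCII+CD11c- and the MHCII+CD11c+ subset, and Nrp2 to -0.07 for MHCII+CD11c+ against MHCII+CD11c-. With voom, IC values turned to -0.07 for Vegfb, 0.47 for Flt1 and -0.03 for Nrp1 in LYVE1+CX3CR1+, to 0.22 for Hbegf in MHCII+CD11c-, and to 0.69 for Igf1, 0.21 for Pdgfa and 0.04 for Flt1 in MHCII+CD11c+ macrophages. With 1 surrogate variable they turned to 0.51 for Igf1, 1.34 for Pdgfb and 0.50 for Flt1 in LYVE1+CX3CR1+ and to -0.08 for Pdgfc in MHCII+CD11c+ macrophages, and after IC Igf1 turned to 0.17 for LYVE1+CX3CR1+ against MHCII+CD11c- and Pdgfa to -0.24 for MHCII+CD11c+ against MHCII+CD11c-. That Pdgfa value was -0.31 at equal depth and -0.04 with the replicate block within treatment. In controls, Pdgfa in LYVE1+CX3CR1+ against MHCII+CD11c- turned to 0.11 with the replicate block, 0.17 with that block within treatment and 0.18 with voom, and against MHCII+CD11c+ to 0.39, 0.48 and 0.68 with these, 0.18 at equal depth and 0.01 with raw totals. Vegfb turned to -0.07 at equal depth (LYVE1+CX3CR1+ against MHCII+CD11c-), Nrp2 to -0.02 with raw totals (MHCII+CD11c+ against MHCII+CD11c-) and Nrp1 for IC in LYVE1+CX3CR1+ to -0.01 without the length trend. Counts of members called moved as follows. For IC, LYVE1+CX3CR1+ macrophages had 1 in place of 0 with DESeq2 and with no filter, MHCII+CD11c- 1 with DESeq2, with the groups compared fitted alone and with the added alternative, and MHCII+CD11c+ 1 with no filter and 2 with the added alternative. In controls, LYVE1+CX3CR1+ against MHCII+CD11c- had 2 in place of 1 with the groups compared fitted alone and with the replicate block within treatment, 3 with the added alternative and 0 at an adjusted p under 0.01. LYVE1+CX3CR1+ against MHCII+CD11c+ had 5 in place of 3 with voom and with that block, 4 with DESeq2, 2 at an adjusted p under 0.01 and 6 with the added alternative, under which MHCII+CD11c+ against MHCII+CD11c- had 5 in place of 3, and 4 with DESeq2, voom and that block. After IC, LYVE1+CX3CR1+ against MHCII+CD11c- had 1 in place of 2 with voom, the groups compared, that block, 1 surrogate variable and an adjusted p under 0.01, and 3 with the added alternative. LYVE1+CX3CR1+ against MHCII+CD11c+ had 5 in place of 3 with DESeq2, the groups compared and that block, 4 with 1 surrogate variable and 6 with the added alternative. MHCII+CD11c+ against MHCII+CD11c- had 4 in place of 2 with voom and the added alternative, 5 with the groups compared, 3 with that block, and 1 with 1 surrogate variable, equal depth and an adjusted p under 0.01. Both interactions with MHCII+CD11c+ had 1 in place of 0 with the added alternative. Shares of all genes called are not given for the alternatives or for leaving out 1 library. Such counts therefore cannot be read as results about the members. The causes were not tested.

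Leaving out 1 library turned the direction of other fold changes, whose ranges for IC were -0.08 to 0.28 for Vegfb, -2.89 to 1.80 for Flt1 and -0.05 to 0.24 for Nrp1 in LYVE1+CX3CR1+ macrophages. In MHCII+CD11c- macrophages they were -1.13 to 1.20 for Vegfa, -1.11 to 0.02 for Pdgfa, -1.45 to 1.39 for Pdgfb, -0.32 to 0.47 for Hbegf, -4.09 to 1.85 for Flt1 and -0.02 to 0.28 for Nrp2. In MHCII+CD11c+ macrophages they were -0.80 to 1.86 for Igf1, -0.56 to 0.10 for Vegfb, -0.81 to 1.12 for Pdgfa, -0.52 to 0.43 for Pdgfb, -0.77 to 1.55 for Pdgfc, -0.02 to 0.42 for Hbegf and -2.02 to 1.43 for Flt1. In controls, LYVE1+CX3CR1+ against MHCII+CD11c- ran from -0.25 to 0.25 for Pdgfa and -6.91 to 1.25 for Flt1, LYVE1+CX3CR1+ against MHCII+CD11c+ from -0.43 to 1.5 for Pdgfa and -0.54 to 0.18 for Hbegf, and MHCII+CD11c+ against MHCII+CD11c- from -0.30 to 2.65 for Pdgfb, -2.32 to 5.50 for Flt1 and -0.08 to 0.14 for Nrp2. After IC the last contrast ran from -0.43 to 0.70 for Pdgfa. Leaving out 1 library gave 0 to 1, 0 to 1 and 0 to 2 calls for IC in the LYVE1+CX3CR1+ subset, the MHCII+CD11c- subset and the MHCII+CD11c+ subset. In the contrasts of LYVE1+CX3CR1+ against MHCII+CD11c-, LYVE1+CX3CR1+ against MHCII+CD11c+ and MHCII+CD11c+ against MHCII+CD11c- it gave 0 to 2, 2 to 5 and 2 to 5 in controls and 1 to 3, 2 to 5 and 0 to 3 after IC, and in the interactions 0 to 0, 0 to 1 and 0 to 1. With the longest transcript, the rank per kilobase changed for 2, 0, 5, 2, 8 and 5 members in the same order of subsets, control before IC. The replicate block by library number left the calls at 0, 0 and 0 for IC, 1, 3 and 3 in controls, 2, 3 and 2 after IC and 0 in the interactions. Deviations from group means correlated at 0.007 to 0.286 between same-numbered control libraries of different subsets, and at -0.15 to 0.067 between differently numbered ones. After IC these ranges were 0.001 to 0.066 and -0.066 to 0.054. The labels do not say whether equal numbers mark the same animals or pools. The main test used no pairing, so a pairing, if there was one, was left out of its contrasts between subsets. The blocks by library number are alternatives that include it. A group of 2 libraries and counts near the floor (Vegfa, Flt1 and Hbegf in LYVE1+CX3CR1+ macrophages, Kdr) limit what could be detected.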
